A study of Mus musculus with 4 samples.

Results

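The genes described here are 47 genes of DNA replication licensing and of the replication fork, out of 24063 gene symbols in the deposited tables, measured in lung endothelial cells (ECs) of mice 7 days after pneumonectomy (PNX, the surgical removal of a lung) and of sham-operated mice. They were listed by symbol as known subunits and factors of the replication machinery, and the rule uses no measured value. The list was, however, written with earlier results of these data known. Each symbol was represented by its most counted RefSeq transcript, and all 47 symbols were in the tables and passed the filter on low counts. In 33 of the 47 that transcript was the only one listed. The study compared PNX with sham surgery to ask which genes change in ECs while the remaining lung grows back.

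Both groups were ECs taken with anti-CD31 beads from lungs of C57BL6J mice aged 8 weeks, with 2 libraries per group and each library made from a pool of 2 mice. The methods place isolated ECs in culture for later experiments and do not say whether the RNA was taken before culture. The PNX group was taken 7 days after the operation. The other group was sham-operated, and no separate day is given for it. No allele, transgene or drug was part of this comparison. Bead selection on CD31 enriches ECs and does not purify them, and pooling hides the difference between the mice of one library. The p-values given here therefore measure the spread between 2 pools per group. That spread was very small: the common dispersion of the fit, the variation beyond counting noise, was 0.0002. Small p-values here thus say little about differences between mice.

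Before a cell can copy its DNA, the origin recognition complex (ORC) sits on origins, and Cdc6 and Cdt1 load onto it the MCM2-7 ring, the motor of the replicative helicase. This step is called licensing, and geminin blocks it outside G1 by binding Cdt1. The kinase Cdc7 with its activator Dbf4 then fires the origin, Cdc45 and the GINS complex join the ring, and DNA polymerases follow with the PCNA clamp. Genes of this machinery are well known targets of E2F transcription factors and are low in resting cells, and most ECs of a healthy adult lung are at rest. ECs multiply during the compensatory growth that follows PNX.

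Promoter sequences are shown for members that rose and for 1 member that did not pass the test. A reader can see there the letters that E2F factors are known to bind. Only windows with a match are printed, and most windows of the members had none. The windows run from 250 bases before to 50 bases after a transcript start, on the gene's strand, 5′ to 3′, from RefSeq on GRCm38.p6. Capitals mark matches to one of 4 forms of the E2F motif (TTTCCCGC, TTTGGCGC, TTTGCCGC and TTTCGCGC), searched on both strands. The first 3 sequences belong to a pair of helicase subunits and to the loading factor with the highest fold change of the 47, and the last 2 to ORC subunits, 1 that rose and 1 that did not pass the test.
Mcm5 (chr8:75109259-75109558, plus strand): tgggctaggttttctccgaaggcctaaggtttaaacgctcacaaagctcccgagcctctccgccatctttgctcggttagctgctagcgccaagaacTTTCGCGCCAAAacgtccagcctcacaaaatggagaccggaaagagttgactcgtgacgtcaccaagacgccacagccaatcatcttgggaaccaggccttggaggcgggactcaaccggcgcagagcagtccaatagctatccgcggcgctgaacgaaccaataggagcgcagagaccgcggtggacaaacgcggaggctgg
Mcm6 (chr1:128359656-128359955, minus strand): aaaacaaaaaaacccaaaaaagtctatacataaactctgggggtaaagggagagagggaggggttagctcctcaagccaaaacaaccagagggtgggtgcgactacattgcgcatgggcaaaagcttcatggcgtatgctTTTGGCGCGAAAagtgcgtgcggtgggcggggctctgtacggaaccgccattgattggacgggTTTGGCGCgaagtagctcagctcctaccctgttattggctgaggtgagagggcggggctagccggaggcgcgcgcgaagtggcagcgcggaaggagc
Cdc6 (chr11:98907901-98908200, plus strand): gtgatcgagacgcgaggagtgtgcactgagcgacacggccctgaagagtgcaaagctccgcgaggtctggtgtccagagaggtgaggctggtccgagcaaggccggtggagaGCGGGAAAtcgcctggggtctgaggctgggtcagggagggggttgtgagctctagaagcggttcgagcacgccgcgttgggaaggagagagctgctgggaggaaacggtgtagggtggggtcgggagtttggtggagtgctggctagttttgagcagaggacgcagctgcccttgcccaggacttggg
Orc1 (chr4:108579204-108579503, plus strand): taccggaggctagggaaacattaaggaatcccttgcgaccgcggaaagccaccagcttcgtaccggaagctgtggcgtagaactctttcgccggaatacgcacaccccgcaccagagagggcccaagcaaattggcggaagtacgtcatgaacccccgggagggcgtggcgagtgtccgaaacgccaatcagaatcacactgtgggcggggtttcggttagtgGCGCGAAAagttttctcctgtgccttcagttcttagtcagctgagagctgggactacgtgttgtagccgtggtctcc
Orc3 (chr4:34614893-34615192, minus strand): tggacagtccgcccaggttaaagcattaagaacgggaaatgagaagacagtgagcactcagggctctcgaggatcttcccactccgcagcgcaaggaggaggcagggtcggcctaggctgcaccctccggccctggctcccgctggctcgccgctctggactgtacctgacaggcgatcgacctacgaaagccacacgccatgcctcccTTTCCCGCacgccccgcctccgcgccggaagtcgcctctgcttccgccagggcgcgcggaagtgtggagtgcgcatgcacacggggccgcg
In Mcm5 a pair of matches overlaps, which gives 1 long run of capitals. In Mcm6 a pair overlaps in the same way and another match lies nearer the start. Orc1 and Orc3 have 1 match each. These windows do not show how common a match is, since 16 of the 47 windows of members held any.

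Each library held between 41367438 and 50952879 counts over these transcripts, and 3 counts corresponded to 0.0589 to 0.0725 CPM. The mice are described as male, yet Xist reached 29890 to 36875 counts and none of 44 listed genes of chromosome Y was counted in any library. This held in all 4 libraries alike, so no result could be taken without it. Normalized counts below are counts brought to the mean effective library size, and levels of different genes are compared in FPKM, the authors' value per transcript length. Replicates lay close together, with a median SD of 0.037 (log2) in the sham pair and 0.035 in the PNX pair.

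Most of the replication genes rose after PNX, and 1 fell. Their share of all counts was 0.0929% and 0.0927% in the sham-operated libraries and 0.154% and 0.153% post-PNX. With a log2 fold change over 1 and an adjusted p under 0.01 as the call, 24 of the 47 (51.1%) were higher post-PNX, against 5.9% of the 16208 genes tested. None of the 47 passed the opposite call, which 1.66% of all genes passed. At an unadjusted p under 0.05, 2 were lower by edgeR (Orc3 and Orc4) and 1 by DESeq2 (Orc4). The share of all genes lower at that unadjusted p was not counted. By adjusted p alone, 41 (87.2%) were higher against 29.3% of all genes, and 1 was lower against 27.8%. Both PNX libraries lay above both sham libraries for 41 members, against 40.8% of all genes. The median log2 fold change of the members was 1.06, or 2.09-fold, while that of all genes tested was 0.0012. Values ran from -0.23 for Orc4 to 2.59 for Cdc6. In bulk RNA a larger share of dividing cells and more of these RNAs per cell cannot be told apart.

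**Figure D1:**
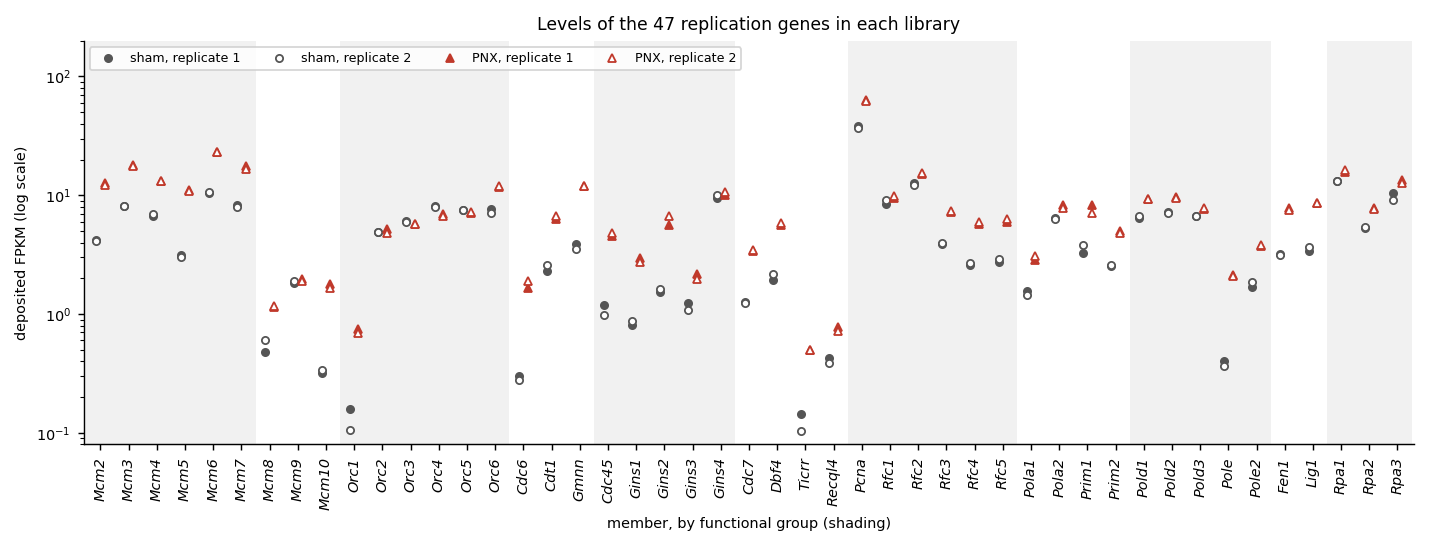
Deposited FPKM (log scale) of each of the 47 replication genes in the 4 libraries, grouped by function with alternating shading. Circles are sham-operated and triangles PNX libraries, filled for replicate 1 and open for replicate 2. Pcna is the highest gene in every library, and Orc1 and Ticrr are the lowest.

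All 6 subunits of the MCM2-7 helicase rose. The 6 are present once each in the ring, and 5 of them passed both thresholds. Mcm5 (chr8:75109468-75128439, with gene positions here and below from RefSeq on GRCm38.p6) had 2769 and 2704 normalized counts post-PNX, against 794 and 757 in the sham libraries. This was a log2 fold change of 1.82 ± 0.043 (SE) and an adjusted p of 1.9e-43, the highest change of the ring. Mcm2, a subunit that Cdc7 phosphorylates, had normalized counts of 1044 and 1019 in the sham and of 3118 and 2995 in the PNX libraries (log2 fold change 1.57, SE 0.040, adjusted p = 6.8e-42). For both genes the 2 libraries of a group differed by far less than the groups did.

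Mcm3 had 1741 and 1722 normalized counts in the sham libraries and 3796 and 3766 post-PNX (log2 fold change 1.13, SE 0.034, adjusted p = 4.1e-38). Mcm6 had 4935 and 4929 normalized counts post-PNX, against 2236 and 2291 in the sham libraries (log2 fold change 1.12, SE 0.030, adjusted p = 2.7e-40), and Mcm7 had normalized counts of 1468 and 1405 in the sham and of 3067 and 2938 in the PNX libraries (log2 fold change 1.06, SE 0.037, adjusted p = 2.7e-34). These 3 subunits thus rose by similar amounts, from 2.09- to 2.18-fold. Mcm4 (chr16:15623897-15637400) had 1782 and 1833 normalized counts in the sham libraries and 3492 and 3457 post-PNX and was the smallest change of the ring, with a log2 fold change of 0.94 ± 0.034 (SE) and an adjusted p of 8.6e-34. It did not reach the fold threshold, although its groups did not overlap. The subunits also came closer in level. The highest of the 6 FPKM values (Mcm6) was 3.32 and 3.57 times the lowest (Mcm5) in the sham libraries, and in the PNX libraries Mcm6 was 2.10 and 2.15 times Mcm5. The mean FPKM of the 6 was 6.85 and 6.81 in the sham libraries and 15.97 and 15.63 post-PNX.

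Of the relatives of the ring, Mcm10 changed most. Mcm10, which is needed for the helicase to start moving and does not belong to the ring, had 459 and 423 normalized counts post-PNX, against 81.5 and 86.6 in the sham libraries, with a log2 fold change of 2.39 ± 0.11 (SE) and an adjusted p of 3.5e-28. Mcm8 and Mcm9 form a separate helicase used in recombination. Mcm8 rose by 1.10 (log2, SE 0.11, adjusted p = 3.4e-13) from a low level, with mean FPKM values of 0.544 in the sham libraries and 1.17 post-PNX. Without sham replicate 1 the log2 fold change of Mcm8 was 0.92, which is under the fold threshold. Mcm9 (chr10:53536315-53630006) had normalized counts of 517 and 544 in the sham and of 557 and 539 in the PNX libraries, with a log2 fold change of 0.05 ± 0.068 (SE) and an adjusted p of 0.54. The Mcm9 groups overlapped and the change did not pass the test. The FPKM of Mcm8 was 0.264 and 0.320 times that of Mcm9 in the sham libraries and 0.586 and 0.620 times post-PNX. Exons of Mcm9 overlap those of Asf1a on the other strand over 19.2% of their length, and whether the counting used strand is not stated.

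The origin recognition complex was the exception among the groups, with a median log2 fold change of -0.04. Orc1 (chr4:108575705-108616030), an ATPase subunit, had 35.3 and 23.4 normalized counts in the sham libraries and 165 and 152 post-PNX with a log2 fold change of 2.41 ± 0.19 (SE) and an adjusted p of 7.9e-18. It was among the lowest genes of the set, with mean FPKM values of 0.133 in the sham libraries and 0.718 post-PNX. Orc6, a small subunit that takes part in loading the ring, had 1419 and 1454 normalized counts post-PNX, against 930.4 and 862 in the sham libraries. It rose by 0.68 (log2, SE 0.049, adjusted p = 3.2e-19), which is under the fold threshold. Orc1 and Orc6 were the only ORC genes to rise by adjusted p.

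The 4 other ORC genes, Orc2 to Orc5, encode the core subunits. Orc4 (chr2:48902824-48952902) had normalized counts of 2447 and 2383 in the sham and of 2086 and 2018 in the PNX libraries. It was the single member lower by adjusted p, with a log2 fold change of -0.23 ± 0.036 (SE) and an adjusted p of 6.1e-08, and both PNX libraries lay below both sham libraries. Orc3 had 2830.1 and 2787 normalized counts in the sham libraries and 2636 and 2639.6 post-PNX (log2 fold change -0.09, SE 0.033, adjusted p = 0.013). Orc5 had 1069 and 1083 normalized counts post-PNX, against 1151 and 1144 in the sham libraries (log2 fold change -0.09, SE 0.048, adjusted p = 0.084). For these 2 genes the PNX libraries also lay below the sham libraries, at 0.939 and 0.938 times the sham level, and neither passed the test. The share of all genes tested whose PNX libraries lay below in the same way was not counted. Orc2 had normalized counts of 1295 and 1287 in the sham and of 1342 and 1262 in the PNX libraries, with overlapping groups and a log2 fold change of 0.01 ± 0.046 (SE) and an adjusted p of 0.80. Scaled to 12 endothelial genes in place of all genes, these values turned to 0.01 for Orc4, 0.15 for Orc3 and 0.15 for Orc5, when the median of all genes moved to 0.25. Relative to that median they were -0.24, -0.09 and -0.09. The core subunits were close to each other in level, the highest FPKM of Orc2 to Orc5 being between 1.38 and 1.65 times the lowest in every library, while Orc1 was 0.0322 and 0.0215 times Orc2 in the sham libraries and 0.145 and 0.142 times post-PNX. Orc2 shares 29.8% of its exon length with Nif3l1 on the opposite strand.

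The factors that load the ring, and the inhibitor of loading, all rose past both thresholds. Cdc6 (chr11:98907709-98923942), the ATPase that recruits the ring with Cdt1, had 101 and 92.8 normalized counts in the sham libraries and 552 and 626 post-PNX. With a log2 fold change of 2.59 ± 0.10 (SE) and an adjusted p of 9.1e-32 this was the highest fold change of the 47 genes. Cdt1, the partner that carries the ring to ORC, had 1018 and 1066 normalized counts post-PNX, against 369 and 416 in the sham libraries (log2 fold change 1.41, SE 0.064, adjusted p = 1.0e-28). Gmnn, which encodes geminin, had normalized counts of 281 and 253 in the sham and of 849 and 856 in the PNX libraries (log2 fold change 1.67, SE 0.072, adjusted p = 1.0e-29). The loading factors and their inhibitor were all higher in both PNX libraries. The FPKM of Cdt1 was 0.585 and 0.734 times that of Gmnn in the sham libraries and 0.535 and 0.556 times post-PNX. The sham pair differed more than the PNX pair in that ratio, and the PNX values lay below both.

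Cdc45 and 3 of the 4 GINS genes rose. Cdc45 (chr16:18780447-18811972), which with GINS turns the loaded ring into the active helicase, had 189 and 154 normalized counts in the sham libraries and 713 and 759.9 post-PNX with a log2 fold change of 2.09 ± 0.085 (SE) and an adjusted p of 5.1e-31. Gins1 rose by 1.77 (log2, SE 0.14, adjusted p = 1.2e-17) and Gins2 by 1.94 (log2, SE 0.10, adjusted p = 4.7e-25). The value of Gins3 was 0.83 (log2, SE 0.095, adjusted p = 1.9e-11), under the fold threshold. Gins4 (chr8:23226610-23237668) had 1005 and 1055 normalized counts post-PNX, against 962 and 1018 in the sham libraries. Its groups overlapped, and the test gave a log2 fold change of 0.06 ± 0.051 (SE) and an adjusted p of 0.33. Gins4 was also the highest GINS gene by FPKM, with mean FPKM values of 9.86 in the sham libraries and 10.3 post-PNX, where Gins1 had mean FPKM values of 0.835 in the sham libraries and 2.85 post-PNX. The highest GINS value was 11.9 and 11.7 times the lowest in the sham libraries and 4.63 and 5.30 times post-PNX. GINS proteins form a complex with 1 copy of each subunit. As for overlapping genes, 67.3% of the exon length of Gins2 is shared with Gse1 on the opposite strand, so its values are uncertain if strand was not used in counting.

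The kinase that fires origins rose in both its subunits by nearly the same amount. Cdc7, the kinase, rose by 1.45 (log2, SE 0.072, adjusted p = 7.8e-27) and had mean FPKM values of 1.25 in the sham libraries and 3.44 post-PNX. Dbf4, its activator, rose by 1.46 (log2, SE 0.065, adjusted p = 4.8e-29) and had mean FPKM values of 2.07 in the sham libraries and 5.69 post-PNX. The FPKM ratio of Cdc7 to Dbf4 was 0.646 and 0.565 in the sham libraries and 0.608 and 0.600 post-PNX, so the PNX values lay between the sham values. Ticrr, which is needed to bring Cdc45 to origins, had normalized counts of 76.1 and 55.0 in the sham and of 260.4 and 261 in the PNX libraries, with a log2 fold change of 1.98 ± 0.14 (SE) and an adjusted p of 6.5e-20. Recql4 (chr15:76703553-76710616), a helicase needed for initiation, had 122 and 111 normalized counts in the sham libraries and 222 and 208 post-PNX. It rose by 0.88 (log2, SE 0.12, adjusted p = 5.5e-09), the smallest change of this group and under the fold threshold.

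**Figure D2:**
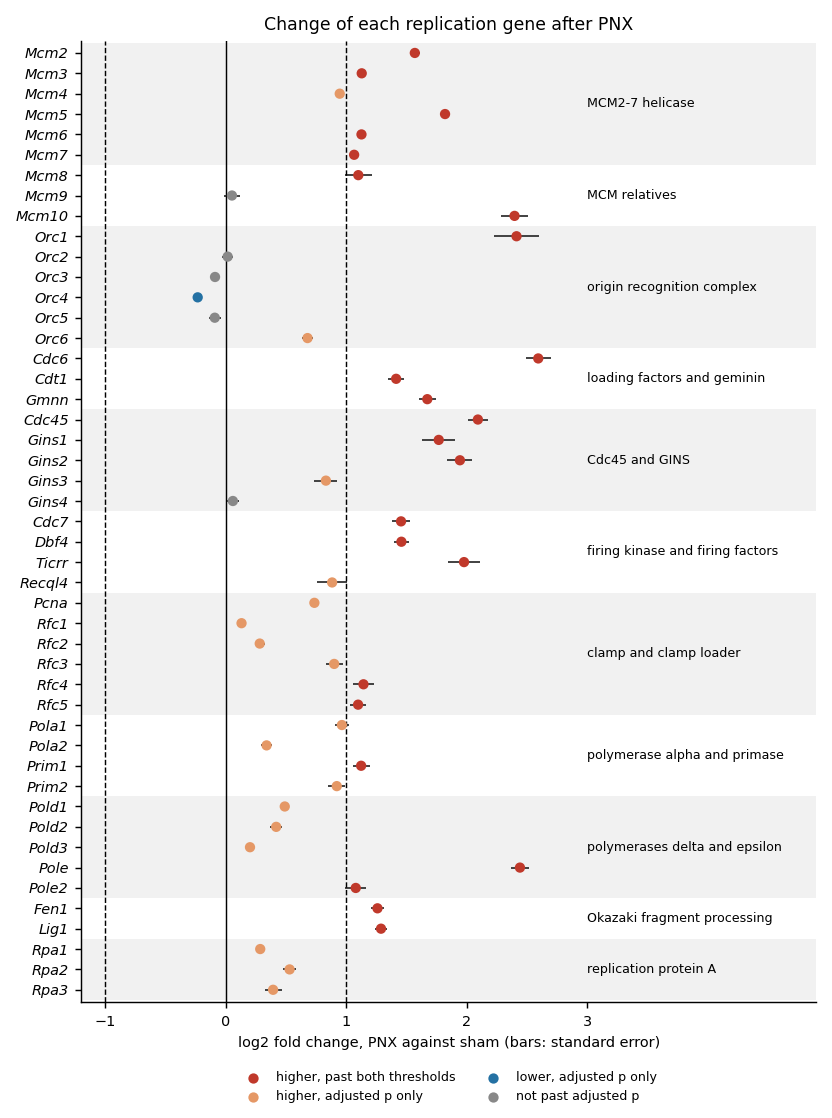
Log2 fold change (PNX against sham) of each replication gene from edgeR, with its standard error as a bar, ordered by functional group. Dashed lines mark the fold threshold of 1 in each direction. The 24 genes past both thresholds are in dark red, and Orc4 at -0.23 is the single gene lower by adjusted p.

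Pcna and its loader rose in every gene, but by amounts from 0.13 to 1.14 on the log2 scale. Pcna (chr2:132249286-132253180), the sliding clamp that holds polymerases on DNA, was the highest of the 47 genes in level, with mean FPKM values of 37.5 in the sham libraries and 62.8 post-PNX. It had 5873 and 5704 normalized counts post-PNX, against 3540.3 and 3420.0 in the sham libraries, and it rose by 0.73 (log2, SE 0.028, adjusted p = 1.7e-32), under the fold threshold. The clamp loader consists of 5 subunits. Rfc4 had normalized counts of 232 and 239.6 in the sham and of 511 and 529 in the PNX libraries (log2 fold change 1.14, SE 0.083, adjusted p = 6.6e-19), and Rfc5 rose by 1.10 (log2, SE 0.069, adjusted p = 8.7e-22). Rfc3 rose by 0.90 (log2, SE 0.072, adjusted p = 2.9e-17) and Rfc2 by 0.28 (log2, SE 0.042, adjusted p = 4.4e-08). Rfc1 (chr5:65261852-65338617), the large subunit, had 2957 and 3162 normalized counts in the sham libraries and 3254 and 3437 post-PNX. It rose by 0.13 (log2, SE 0.033, adjusted p = 5.0e-04), the smallest change that passed the test among the 47. The adjusted p of Rfc1 was 0.065 without sham replicate 1, 0.043 without PNX replicate 2 and 0.028 by DESeq2. The 2 subunits with the highest sham FPKM, Rfc2 and Rfc1, changed least. The ratio of the highest to the lowest loader subunit was 4.91 and 4.53 in the sham libraries and 2.61 and 2.59 post-PNX. Part of the exon length is shared with a gene on the opposite strand in Rfc2 (15.1%, Lat2), Rfc4 (12.65%, Eif4a2) and Rfc5 (10.69%, Wsb2).

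DNA polymerase alpha and primase, which start each new strand with a short primer, rose in all 4 genes. Prim1 (chr10:128015215-128030030), the catalytic primase subunit, had 927 and 797 normalized counts post-PNX, against 371 and 427 in the sham libraries, with a log2 fold change of 1.12 ± 0.070 (SE) and an adjusted p of 8.4e-22. Its PNX libraries lay apart from each other and above both sham libraries. Prim2 rose by 0.92 (log2, SE 0.069, adjusted p = 2.3e-18). Pola1, the catalytic polymerase subunit, rose by 0.96 (log2, SE 0.056, adjusted p = 3.3e-23), just under the fold threshold, and its value was 1.02 without sham replicate 1 and 1.01 without PNX replicate 1. Pola2 (chr19:5940543-5964238) had normalized counts of 1139 and 1125 in the sham and of 1476 and 1381 in the PNX libraries, with a log2 fold change of 0.34 ± 0.046 (SE) and an adjusted p of 3.5e-09. The subunit with the highest sham FPKM in this complex, Pola2 with mean FPKM values of 6.34 in the sham libraries and 8.05 post-PNX, again changed least. The FPKM of Pola1 was 0.245 and 0.230 times that of Pola2 in the sham libraries and 0.344 and 0.394 times post-PNX.

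Both polymerases that copy the bulk of the DNA rose in every subunit gene on the list. Pole (chr5:110286319-110337468), which encodes the catalytic subunit of polymerase epsilon on the leading strand, had 213 and 192 normalized counts in the sham libraries and 1107 and 1094 post-PNX. It rose by 2.44 (log2, SE 0.072, adjusted p = 2.1e-38), the second highest fold change of the 47 genes. Pole2, an accessory subunit, rose by 1.08 (log2, SE 0.087, adjusted p = 5.2e-17), and without sham replicate 1 its value was 0.9995, just under the fold threshold. The FPKM ratio of Pole to Pole2 was 0.241 and 0.195 in the sham libraries and 0.568 and 0.553 post-PNX. Pold1, the catalytic subunit of polymerase delta on the lagging strand, rose by 0.49 (log2, SE 0.038, adjusted p = 6.8e-18) and had mean FPKM values of 6.59 in the sham libraries and 9.28 post-PNX. Pold2 rose by 0.42 (log2, SE 0.051, adjusted p = 1.5e-10). Pold3 (chr7:100082110-100121502) had 1678 and 1706 normalized counts post-PNX, against 1467 and 1480.2 in the sham libraries, with a log2 fold change of 0.20 ± 0.041 (SE) and an adjusted p of 2.6e-05. In sham libraries the FPKM of Pole was 0.0624 and 0.0547 times that of Pold1, and post-PNX it was 0.228 and 0.226 times.

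The genes that finish lagging-strand fragments rose together. Lig1 (chr7:13277175-13311426), the ligase that seals them, had normalized counts of 794 and 850.2 in the sham and of 2002 and 2002 in the PNX libraries, with a log2 fold change of 1.29 ± 0.046 (SE) and an adjusted p of 4.8e-34. Fen1, the nuclease that trims them, had 525 and 509 normalized counts in the sham libraries and 1257 and 1213 post-PNX, with a log2 fold change of 1.26 ± 0.056 (SE) and an adjusted p of 5.2e-29. The FPKM ratio of Fen1 to Lig1 was 0.949 and 0.859 in the sham libraries and 0.902 and 0.871 post-PNX. Exons of Fen1 overlap those of the antisense gene Gm10143 over 78.8% of their length, so the Fen1 counts are uncertain without strand.

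Replication protein A, which coats single-stranded DNA at forks and in repair, had the lowest median (0.39, log2) of the groups in which every gene rose. Rpa2 (chr4:132768360-132778746) had 1017 and 1005 normalized counts post-PNX, against 698 and 705 in the sham libraries, with a log2 fold change of 0.53 ± 0.054 (SE) and an adjusted p of 5.1e-13. Rpa1, the large DNA-binding subunit, had normalized counts of 3001 and 3002 in the sham and of 3577 and 3740.4 in the PNX libraries, with a log2 fold change of 0.28 ± 0.031 (SE) and an adjusted p of 3.4e-12. Rpa3 rose by 0.39 (log2, SE 0.071, adjusted p = 2.2e-06). None of the 3 reached the fold threshold, and all 3 were above 5 FPKM in sham libraries.

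Across the 47 genes the change was larger where the sham level was lower. Of the 8 genes under 1 FPKM in the sham libraries, 7 passed both thresholds, and the median change of the 8 was 2.19 (log2). Of the 20 genes from 1 to 5 FPKM, 14 passed, with a median of 1.20. Of the 19 genes at 5 FPKM or more, 3 passed (Mcm3, Mcm6 and Mcm7), with a median of 0.39. Among all genes tested the same bins gave 18.2%, 4.59% and 1.22% past both thresholds in the upward direction. Spearman's rho between sham FPKM and log2 fold change was -0.67 over the 47 genes and -0.07 over all genes tested, and it was -0.49 with the mean FPKM of all 4 libraries. These are descriptions, since the sham libraries enter both measures and the genes share the same 4 libraries.

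**Figure D3:**
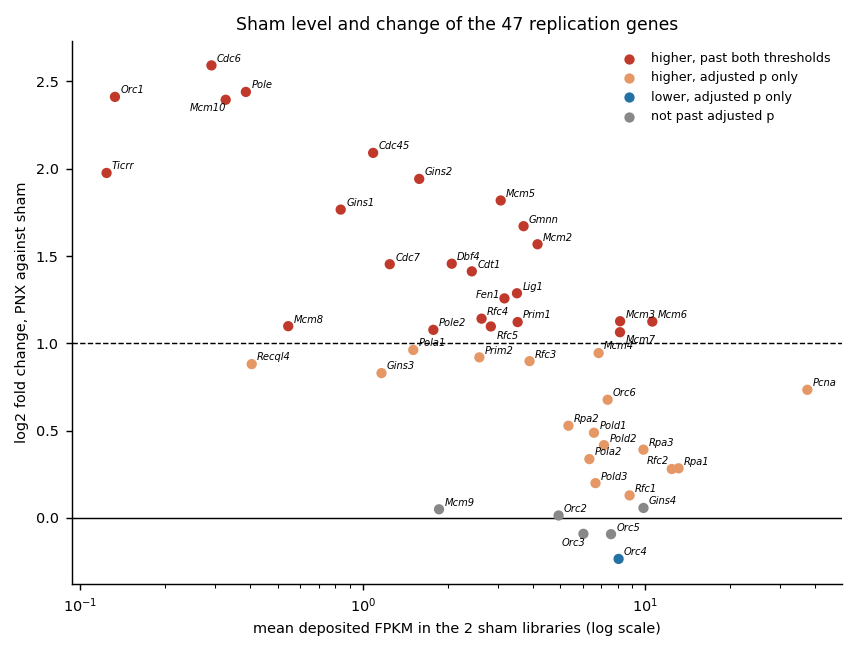
Mean FPKM of the 2 sham libraries (log scale) against log2 fold change (PNX against sham) for the 47 replication genes. Genes under 1 FPKM such as Cdc6, Orc1, Mcm10 and Pole sit at the upper left, while Orc2 to Orc5, Gins4 and the RPA genes sit at the lower right with Pcna as the farthest point.

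The E2F motif forms stood in more promoter windows of these genes than of others. RefSeq windows were found for 38 of the 47 genes, 47 windows in all. A match lay in 16 of the 47 windows (34.0%), against 2.26% of all 32851 windows and 3.51% of the windows of genes tested. Among windows of members past both thresholds 10 of 25 (40%) held a match, and among windows of the other members 6 of 22 (27.3%). Matches of Mcm3, Mcm5, Mcm6, Mcm7, Orc1, Cdc6 and Cdt1 belonged to licensing genes past both thresholds. Orc3 held a match as well, and did not pass the test. A match is a string of letters only, and the factor's binding was not measured. Counted by gene, 10 of the 20 members past both thresholds that had a window held a match. So did 6 of the 18 other members with a window, and 502 of 11819 genes tested with a window. The windows of Mcm2, Mcm10, Cdc45, Cdc7, Dbf4, Ticrr, Rfc4, Rfc5, Prim1 and Fen1 held none of these strings, and neither did that of Pcna.

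**Figure D4:**
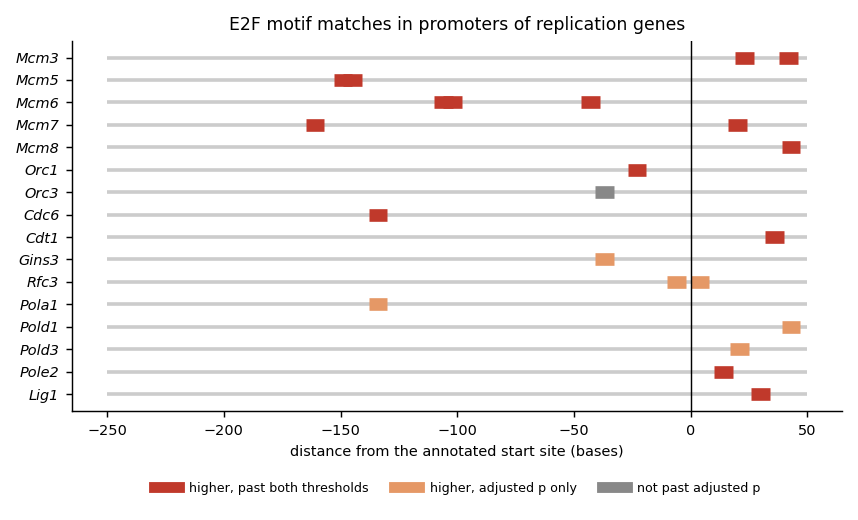
Position of each E2F motif match (8 bases) relative to the annotated transcript start, in bases, for the 16 replication genes with a match in the window. Colours give the test result of the gene. Matches lie between -165 in Mcm7 and 39 in Mcm8 and Pold1, and Orc3 is the single gene drawn in grey, for a gene that did not pass.

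A list of 34 further replication genes outside the 47, of which 33 were in the tables and tested, had a lower median change. Of these, 11 (33.3%) were higher past both thresholds, against 5.9% of all genes tested. By adjusted p alone 27 (81.8%) were higher, against 29.3% of all genes, and 1 was lower, against 27.8%. Their median log2 fold change was 0.53. None was lower past both thresholds, against 1.66% of all genes. At an unadjusted p under 0.05, 3 were lower by edgeR (Chtf8, Cul4a and Top1) and 1 by DESeq2 (Top1), and the share of all genes was not counted. Dtl, which with its ligase marks Cdt1 for degradation, had a mean of 114 normalized counts in the sham libraries and 829 post-PNX, with a log2 fold change of 2.86 ± 0.087 (SE) and an adjusted p of 1.6e-37. Clspn, a checkpoint mediator that travels with the fork, rose from 129.7 to 935 (log2 fold change 2.85, SE 0.084, adjusted p = 3.0e-38). Uhrf1, which passes DNA methylation on to new strands, rose from 320.1 to 2144 (log2 fold change 2.74, SE 0.055, adjusted p = 1.6e-47). Dscc1, a subunit of an alternative clamp loader, rose by 2.40 (log2, SE 0.21, adjusted p = 1.6e-15). Asf1b, a histone chaperone, rose by 2.16 (log2, SE 0.086, adjusted p = 1.6e-31). The log2 fold changes of these 5 genes lay between 2.16 and 2.86, near those of Cdc6, Orc1 and Pole. At the other end, Top1, a topoisomerase used in transcription as well, fell by 0.20 on the log2 scale (SE 0.026, adjusted p = 8.6e-10). Chtf8 at -0.06 (log2, SE 0.027, adjusted p = 0.032) and Cul4a at -0.06 (log2, SE 0.028, adjusted p = 0.041) did not pass.

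Markers of other cells moved between the same libraries. Rises and falls of markers are counted by adjusted p alone, by which 29.3% of all genes tested were higher and 27.8% lower. Of 12 endothelial markers 10 were lower and 1 higher by adjusted p, and their sums were 2163 and 2189.6 FPKM in the sham and 1889 and 1885 in the PNX libraries. Pecam1, which encodes CD31, changed by -0.01 (log2; adjusted p = 0.64), and Eng changed most of this list, at -0.54. Fibroblast markers rose in 4 of 6 and fell in 1, with sums of 146 and 149 FPKM against 459 and 463, and Lum rose by 4.26 and Pdgfra fell by 0.23 on the log2 scale. Mesothelial markers rose in all 5, from 75.4 and 76.3 to 148 and 151 FPKM, Wt1 by 2.68 and Msln by 1.97. Macrophage and monocyte markers rose in 7 of 8, C1qb by 2.98 and Csf1r by 0.68. Their sums were 1969 and 1965 FPKM in the sham and 2520.0 and 2505 in the PNX libraries. Most of each sum was Lyz2, which had means of 1859 FPKM in the sham and 2156 in the PNX libraries and rose by 0.20. Mural markers rose in 5 of 6 (sums 51.3 and 52.0 FPKM in the sham and 74.5 and 73.7 in the PNX libraries), Pdgfrb by 0.27 and Rgs5 by 2.09. Platelet markers rose in 3 of 5, with sums of 28.0 and 27.7 FPKM in the sham and 47.9 and 46.0 in the PNX libraries, Itga2b by 0.38 and Pf4 by 1.34. The pan-leukocyte list rose in 3 of 5 and fell in 1 (sums 229 and 227 FPKM in the sham and 246 and 249 in the PNX libraries), with Ptprc at -0.0031 and Cd53 at 0.30. The methods describe the ECs as CD45-negative by flow cytometry, and Ptprc, which encodes CD45, had means of 28.2 FPKM in the sham and 28.3 in the PNX libraries.

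Neutrophil markers rose in all 4, with S100a8 at 0.15, Retnlg at 0.50 and sums of 191 and 197 FPKM in the sham and 227 and 219 in the PNX libraries. Erythroid markers rose in 3 of 5, with sums of 98.7 and 97.1 FPKM in the sham and 109.7 and 106 in the PNX libraries, while Hba-a1 at 0.10 did not pass. All 6 T cell markers fell, with sums of 16.1 and 16.8 FPKM in the sham and 9.54 and 9.53 in the PNX libraries, Cd3d at -0.86 and Cd8a at -1.08. All 5 B cell markers fell, with sums of 51.6 and 51.5 FPKM in the sham and 29.8 and 28.7 in the PNX libraries and Cd79a at -0.87. All 7 alveolar epithelial markers fell, with sums of 4110.4 and 4123 FPKM in the sham and 2716 and 2701 in the PNX libraries, Sftpc at -0.62 and Sftpa1 at -0.71. Sftpc, a surfactant gene of alveolar epithelium, had a mean of 2893 FPKM in the sham libraries, above 374 for Pecam1. No marker in the tables was at 0 in any library. The part of these shifts in the change of the replication genes was not tested.

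**Figure D5:**
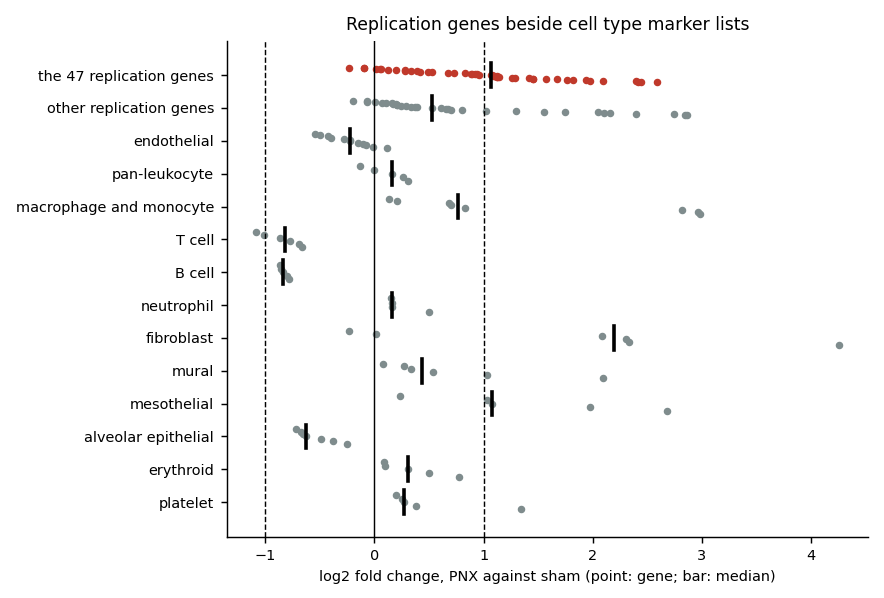
Log2 fold change (PNX against sham) of the genes of each list, 1 point per gene, with the median as a black bar. The 47 replication genes have a median of 1.06 and the further replication genes 0.53, beside 2.19 for fibroblast, 1.08 for mesothelial and -0.22 for endothelial markers.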

How the data were processed

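RNA of 4 libraries (2 sham, 2 PNX) was prepared by the authors with a stranded mRNA kit and sequenced as paired ends. Reads were aligned to mm10, and the submitters' processing notes name STAR. Its version and the counting tool are not given in the sources used here. For each RefSeq transcript the authors deposited a read count without normalization. Transcripts that overlap each received the read, so 1 transcript per symbol was used. The FPKM deposited beside it, scaled to transcript length and library total, served to compare levels between genes. The TPM values that the authors deposited were not used.

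Counts of all genes that passed filterByExpr (16208) were fitted with edgeR 4.0.16 in R 4.3.3 (TMM, quasi-likelihood F test, no covariates), and p-values were adjusted by Benjamini-Hochberg over all of them. A call required both an adjusted p under 0.01 and a change of more than 1 on the log2 scale. The fit was tested on simulated data. The SE is the log2 fold change divided by the root of F. Alternatives were other scalings, other filters on low counts, DESeq2 1.42.0, a test against the fold threshold (glmTreat), a looser adjusted p, a replicate block, counts summed over transcripts, and leaving out each library. Normalized counts were given for the highest and lowest member of each functional group, for members that fell, and for MCM2-7, the loading factors, geminin and Pcna. Promoter motifs were counted as exact strings, and exon overlaps came from GENCODE M21. Members, lists and tests were chosen with earlier results of these data known.

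The 4 libraries had TMM factors from 0.998 to 1.003. The members had 23 counts or more in every library, and their median SE was 0.056 (log2). Samples were grouped by the treatment in their labels. Pclaf, Adgre1, Trac and Ly6g were on the lists but were not analysed here. Values of 2 single marker genes are not reported here.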

Additional observations from a re-analysis of the deposited data

How the results depend on the processing

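The count of 24 members higher past both thresholds ran from 18 to 30 over all alternatives, and from 23 to 25 when 1 library was left out. By glmTreat, which tests against the fold threshold itself, it was 18, and Mcm7, Mcm8, Rfc4, Rfc5, Prim1 and Pole2 no longer passed. Without sham replicate 1, Mcm8 and Pole2 fell under the fold threshold and Pola1 passed it. Scaled to 12 endothelial genes, the count was 30, the median of the members was 1.31 where that of all genes was 0.25, and 0 members in place of 1 were lower by adjusted p. Under that scaling the log2 fold change was 0.15 for Orc3, 0.010 for Orc4 and 0.15 for Orc5, in the opposite direction. The number of members lower by adjusted p was 2 under a replicate block, 2 with counts summed over transcripts and 2 at an adjusted p under 0.05. The gene added was Orc3. Leaving out 1 library gave medians from 1.00 to 1.05, below the value of 1.06 from all libraries. Orc2 was at -0.031 without PNX replicate 1, and between -0.031 and 0.056 over the libraries left out. The adjusted p of Rfc1 was over 0.01 by DESeq2, without sham replicate 1 and without PNX replicate 2. Of 611 single-gene values under the alternatives other than glmTreat, 598 kept the direction and the side of the adjusted p threshold, 3 were no longer under that threshold, 6 came under it and 4 turned direction. Libraries of the same number in the sham and PNX groups came from different mice, and their deviations correlated at 0.03. The labels do not say what else a replicate number stands for. A replicate block gave 24 members higher past both thresholds and changed no other count than the one above. The causes of these shifts were not tested. With 3 counts at 0.0589 to 0.0725 CPM, depth limited the precision most for Orc1, Ticrr and Gins1.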

Other observations

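Of the 14 members with several listed transcripts, the other transcripts numbered 21, and 19 of them held more than 80% of the counts of the transcript used in every library. A short Gins1 transcript of 644 bases held 64.8% and 70.6% of the counts of the longer one in the sham libraries and 57.1% and 65.0% post-PNX. A short Orc4 transcript of 1397 bases held 22.8% and 24.6% in the sham libraries and 24.9% and 26.3% post-PNX. The Orc4 transcript with the most counts, of 4075 bases, is listed as non-coding, and a coding one of 4029 bases had 97.7% to 98.4% of its counts.

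Of the other promoter strings searched, TTTGAA and TTCGAA, forms of the cell cycle homology region that marks genes of later cell cycle phases, were in 21.3% of the members' windows, 19.2% of all windows and 14.2% of the windows of genes tested. The CCAAT box was in 55.3%, 37.4% and 37.0% of these sets. Among windows of members past both thresholds these strings were in 28% and 48%, and among windows of the other members in 13.6% and 63.6%.

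Within GINS, leaving aside Gins4, the highest FPKM was 1.92 and 1.88 times the lowest in the sham libraries and 2.58 and 3.35 times post-PNX, so these 3 subunits lay farther apart after PNX, while the subunits of MCM2-7 and of the clamp loader lay closer together.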
